A study of Mus musculus with 20 samples.

Results

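Neutrophil granule genes encode the proteases, antimicrobial proteins and calcium-binding proteins that neutrophils carry. The 9 described here are Prtn3, Mpo, Ctsg, Camp, Ngp, S100a8, S100a9, Lyz2 and Csf3r, out of 18194 genes with a probe set in 20 mouse mammary glands. They were chosen by gene symbol. Prtn3 was chosen because its levels differed between the treatments in an earlier look at the same values, and the other 8 as genes that neutrophils are known to use. Each had 1 probe set with a single symbol on the array.

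In textbook accounts, granule proteins are made in waves as neutrophils mature in the bone marrow. Promyelocytes transcribe the primary granule genes, among them Prtn3, Mpo, Ctsg and Elane, and later stages transcribe secondary granule genes such as Camp, Ngp and Ltf. Circulating neutrophils have largely stopped making these transcripts and are rich in S100a8, S100a9 and Csf3r RNA. Lyz2 is shared with macrophages and monocytes.

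Each array held RNA from 1 animal. All 20 were female FVB/N mice heterozygous for the NRL-TGFa transgene (line TgN(Nrl-tgfalpha)29EPS), which drives the growth factor TGFα from the NRL promoter, so the placebo animals carry it too. At 8.5 weeks of age the animals received an implant with 5 mg of tamoxifen, a selective oestrogen receptor modulator, or a carrier without drug. A number 4 mammary gland without tumor was taken at 20.5 to 21 weeks, 4 weeks after treatment ended, and the animals were watched for mammary tumors to at most 2 years of age. A tumor came later in 7 of the 10 placebo animals and in 3 of the 10 tamoxifen animals. Epithelial (7 of 7), white adipocyte (6 of 6) and endothelial (4 of 4) markers exceeded the median of all values on every array. On the first principal component of all tested genes 3 placebo glands of animals with later tumors stood apart, those of animals 7 (-30.94), 8 (-41.13) and 9 (-14.64), while no other gland was beyond 12.65. Values are levels on the log2 scale as the authors deposited them after robust multi-array averaging (RMA). The median of all values was 6.85, and a gene was tested when it exceeded it on at least 3 arrays, which 12499 genes did. That level is a filter, not a measure of whether a transcript was present, and levels of different probe sets are not set against each other.

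Prtn3 lies on chromosome 10, directly between Plppr3 and Elane in the order of genes in the GRCm38.p6 assembly. The 250 bases upstream of the annotated start of Prtn3 are shown with those of both neighbours, because the correlation with Prtn3 across glands was high for 1 of them and low for the other. The same stretch is shown for S100a8 and S100a9, the pair of members that varied together most closely. Sequences are from RefSeq (GRCm38.p6) and run 5′ to 3′ on the strand of the gene. Capitals mark matches, on either strand, to a PU.1 core (GAGGAA), a RUNX core (TGTGGT), a C/EBP half-site (GCAAT), an oestrogen response element half-site (GGTCA) or a TATA element (TATAAA).
Prtn3 (chr10:79879417-79879666, plus strand): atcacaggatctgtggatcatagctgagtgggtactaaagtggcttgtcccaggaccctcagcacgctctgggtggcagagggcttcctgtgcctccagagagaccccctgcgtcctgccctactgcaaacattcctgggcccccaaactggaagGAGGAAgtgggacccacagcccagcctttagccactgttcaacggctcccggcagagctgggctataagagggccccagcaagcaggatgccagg
Elane (chr10:79886062-79886311, plus strand): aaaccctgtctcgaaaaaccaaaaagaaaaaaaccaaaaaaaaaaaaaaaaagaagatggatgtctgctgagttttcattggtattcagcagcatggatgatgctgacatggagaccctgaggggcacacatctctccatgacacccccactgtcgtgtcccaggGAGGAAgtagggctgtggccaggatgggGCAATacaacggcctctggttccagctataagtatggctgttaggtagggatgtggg
Plppr3 (chr10:79874635-79874884, minus strand): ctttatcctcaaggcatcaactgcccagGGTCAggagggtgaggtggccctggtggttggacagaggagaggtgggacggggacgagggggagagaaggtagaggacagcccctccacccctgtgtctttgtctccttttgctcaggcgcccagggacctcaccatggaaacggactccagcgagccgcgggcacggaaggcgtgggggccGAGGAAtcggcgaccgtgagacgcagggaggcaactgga
S100a8 (chr3:90668821-90669070, plus strand): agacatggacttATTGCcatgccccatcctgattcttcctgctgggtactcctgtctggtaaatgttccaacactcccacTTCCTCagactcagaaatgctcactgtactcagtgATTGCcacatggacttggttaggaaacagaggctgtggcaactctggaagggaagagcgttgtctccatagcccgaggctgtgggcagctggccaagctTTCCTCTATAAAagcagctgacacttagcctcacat
S100a9 (chr3:90695722-90695971, minus strand): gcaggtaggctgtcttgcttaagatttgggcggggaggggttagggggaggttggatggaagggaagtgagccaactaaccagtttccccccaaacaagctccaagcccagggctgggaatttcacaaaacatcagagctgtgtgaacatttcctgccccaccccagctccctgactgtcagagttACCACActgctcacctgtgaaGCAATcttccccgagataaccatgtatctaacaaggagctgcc
The Prtn3 stretch held 1 match, to the PU.1 core, a motif found in 23.1% of 27025 mouse stretches of the same length. Elane held 1 PU.1 core and 1 C/EBP half-site, the latter found in 23.3% of all stretches. Plppr3 held 1 PU.1 core and 1 oestrogen response element half-site, the latter found in 34.9%. S100a8 held 2 PU.1 cores, 2 C/EBP half-sites and 1 TATA element, and 1 of those PU.1 matches runs directly into the TATA element. S100a9 held 1 RUNX core, a motif found in 14.2%, and 1 C/EBP half-site. TATA elements were found in 13.0% of stretches. The motifs were picked after the levels were known, and a match is only a match of letters.

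Prtn3 encodes proteinase 3, a serine protease of primary granules. In the 3 placebo glands without a later tumor its level was 7.47, 7.07 and 7.75. In the 7 placebo glands with a later tumor the lowest level was 6.85, the median 7.81 and the highest 8.95. These placebo groups overlapped. The 3 tamoxifen glands with a later tumor read 8.76, 7.76 and 9.03, a range inside or just above that of the placebo glands.

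In the 7 tamoxifen glands without a later tumor Prtn3 ran from 8.76 to 10.96, with a median of 10.66. Of these, 6 glands lay above every other gland of the study, between 10.37 and 10.96, and animal 3 was the exception at 8.76. The widest gap in Prtn3 over the 20 glands, 1.34 on the log2 scale, lay between 9.03 and 10.37, and the next widest was 0.59. It parted 6 glands, all tamoxifen without a later tumor, from the other 14. The means fell in the order tamoxifen without tumor (10.45 ± 0.77, SD, n = 7), tamoxifen with tumor (8.52 ± 0.67, n = 3), placebo with tumor (7.93 ± 0.75, n = 7) and placebo without tumor (7.43 ± 0.34, n = 3). Each group overlapped its neighbour in that order, the top group only through animal 3.

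**Figure D1:**
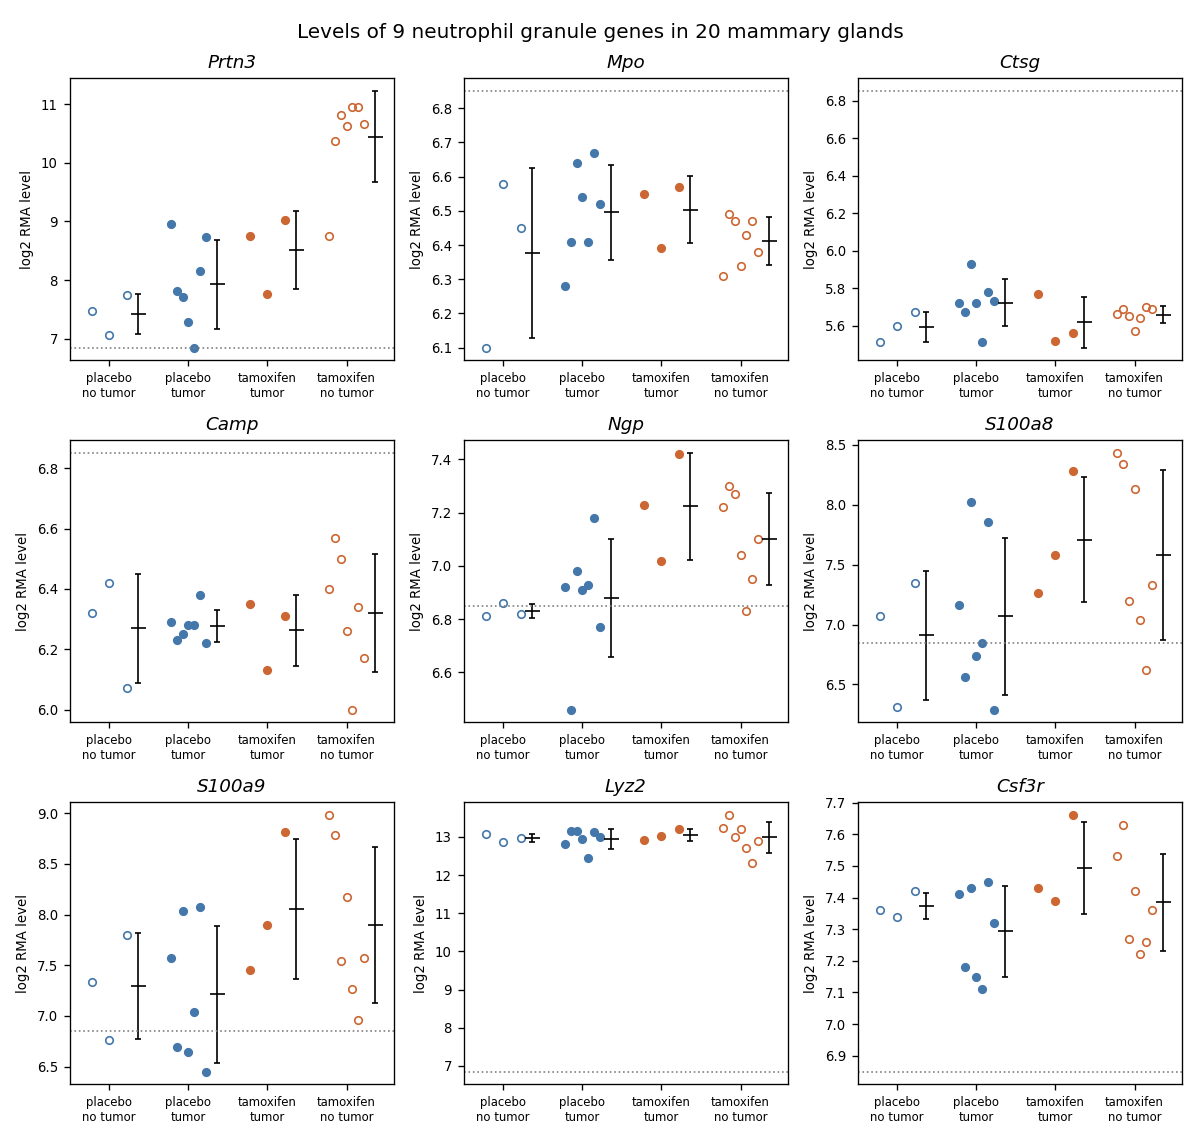
Level of each of the 9 genes (log2 RMA level, vertical axis, a scale of its own per gene) in each of 20 glands by group. Filled points are glands of animals with a later tumor, open points those without; bars are the group mean with its SD, and the dotted line is the filter level of 6.85. For Prtn3, 6 of the 7 tamoxifen glands without a later tumor lie apart from all other glands, which they do for none of the other 8 genes.

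The mean of Prtn3 was 9.87 ± 1.17 (SD, n = 10) in tamoxifen glands against 7.78 ± 0.68 (SD, n = 10) in placebo glands, a difference of 2.09 ± 0.40 (SE) on the log2 scale, or 4.25-fold. In animals without later tumors the difference was 3.02 ± 0.45 (SE), or 8.09-fold, and in animals with later tumors 0.59 ± 0.45 (SE). Protected tamoxifen glands exceeded placebo glands with later tumors by 2.52 ± 0.35 (SE). Without placebo animals 7, 8 and 9 the treatment difference was 1.94. These differences hold the values for which Prtn3 was chosen and are given as a description without a test. In whole glands, more cells of a type and more RNA per cell cannot be told apart.

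Later outcome was not what Prtn3 was chosen for, and it was tested with limma across all 12499 genes with Benjamini-Hochberg adjustment. Glands of animals with a later tumor averaged 8.10 ± 0.75 (SD, n = 10), against 9.54 ± 1.60 (SD, n = 10) without. The difference of -1.44 ± 0.52 (SE) did not pass (adjusted p = 0.167, unadjusted p = 0.0111), in a comparison where 29 genes passed (0.232%) and 16.5% fell under an unadjusted 0.05. With treatment in the model it was -0.72 (adjusted p = 0.604). Later tumors were unequally spread over the treatments, 7 with placebo and 3 with tamoxifen. The pooled outcome difference therefore holds part of the treatment difference for which Prtn3 was chosen. Its p-values without treatment in the model are no independent test of outcome.

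Within tamoxifen animals the outcome difference in Prtn3 was -1.93 ± 0.45 (SE), or 3.81-fold lower with a later tumor, and within placebo animals it was 0.50 ± 0.45 (SE). Neither passed, with limma adjusted p = 0.453 within tamoxifen and 0.638 within placebo. In each of these comparisons 1 gene of 12499 passed (0.008%). The difference between the 2 outcome effects was -2.43 ± 0.64 (SE). It holds the treatment differences for which Prtn3 was chosen and is given as a description without a test. The result within tamoxifen depended on single animals and on the weighting of arrays. Without tamoxifen animal 3 it was -2.21 (limma adjusted p = 0.0208), and without tamoxifen animal 2 it was -1.55 (limma adjusted p = 1.0). With all animals and array weights it was -2.0 (limma adjusted p = 0.0437). These fits were chosen after seeing the data. Without placebo animals 7, 8 and 9 the placebo difference was 0.87 (limma adjusted p = 0.702).

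Among the 12499 genes Prtn3 ranked 84 by its spread within the 4 groups, with an SD of 0.71 where the median gene had 0.14. S100a9 (0.70) and S100a8 (0.65) ranked 92 and 122. Csf3r (0.14) varied no more within groups than the median gene, and Ngp (0.19) and Lyz2 (0.30) lay between.

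Of the other primary granule genes, Mpo encodes myeloperoxidase, which makes hypochlorous acid, and Ctsg encodes the serine protease cathepsin G. Mpo ran from 6.10 to 6.67 over the 20 glands and Ctsg from 5.51 to 5.93. Camp, the gene of the antimicrobial peptide cathelicidin in secondary granules, ran from 6.0 to 6.57. All 3 stayed below 6.85 on every array, so they were not tested and their differences carry little information. Elane, the gene of neutrophil elastase and the neighbour of Prtn3, read 7.57 to 8.02 and passed the filter on all 20 arrays. Its tamoxifen minus placebo difference was -0.02 ± 0.05 (SE; limma adjusted p = 0.899). Elane averaged 7.76 ± 0.15 (SD, n = 7) in the tamoxifen glands without later tumors, where Prtn3 was highest, and 7.77 ± 0.13 (SD, n = 3) in the placebo glands without them. Over all 20 glands the SD of Elane was 0.11. A signal that hardly varied can show little by its difference or its r with Prtn3.

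Of the 8 members other than Prtn3, 5 passed the filter, and 0 of 5 passed the treatment test (limma), in which 1 of all 12499 genes passed (0.008%). That gene was Akr1cl, an aldo-keto reductase, higher with tamoxifen by 2.88 ± 0.45 (SE; limma adjusted p = 0.0319). At an unadjusted 0.05, 3 of 5 members fell under the threshold, against 13.9% of all genes, and all 5 differences were above 0. Their median was 0.28, against 0.001 over all genes. The largest of them was 0.70 and the smallest 0.05, each well under that of Prtn3.

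Ngp, a secondary granule protein related to cathelicidins, had the smallest p of these. Its 10 placebo glands had a lowest level of 6.46, a median of 6.88 and a highest of 7.18, and its 10 tamoxifen glands 6.83, 7.16 and 7.42. The difference was 0.28 ± 0.08 (SE; limma adjusted p = 0.147). The treatments overlapped. The 3 tamoxifen glands with later tumors read 7.23, 7.02 and 7.42, so Ngp was not highest where Prtn3 was.

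S100a8 and S100a9 encode the 2 chains of calprotectin, an abundant complex of the neutrophil cytosol. S100a9 had a lowest level of 6.45, a median of 7.19 and a highest of 8.07 with placebo, and 6.96, 7.74 and 8.98 with tamoxifen. Its difference of 0.70 ± 0.27 (SE) did not pass (limma adjusted p = 0.255), and neither did that of S100a8, 0.60 ± 0.26 (SE; limma adjusted p = 0.297). The treatments overlapped over most of their range for both genes. The highest S100a9 level of the study, 8.98, came from tamoxifen animal 3, the gland with the lowest Prtn3 of its group. The lowest tamoxifen level, 6.96, came from tamoxifen animal 8, whose Prtn3 was 10.95.

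Csf3r encodes the receptor for the granulocyte growth factor G-CSF. It ran from 7.11 to 7.45 with placebo and from 7.22 to 7.66 with tamoxifen, and its difference of 0.10 ± 0.06 (SE) did not pass (limma adjusted p = 0.471). Lyz2, the gene of the lysozyme of macrophages and neutrophils, ran from 12.31 to 13.57 and differed by 0.05 ± 0.12 (SE; limma adjusted p = 0.872). Lyz2 and Lyz1 are near-identical copies whose probes may share signal, and their levels varied together (r = 0.97 over 20 glands with the treatment means subtracted), so the Lyz2 level is uncertain as to its gene.

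For later outcome 0 of 5 members other than Prtn3 passed (limma adjusted p from 0.725 to 0.987), in the comparison where 0.232% of genes passed, and 0 of 5 fell under an unadjusted 0.05. Their differences ran from -0.25 for S100a9 to -0.01 for Lyz2, and all 5 turned positive with treatment in the model. Within tamoxifen animals the same 5 genes differed by 0.06 to 0.16 with a later tumor, where Prtn3 differed by -1.93, and 0 of 5 passed (limma adjusted p = 1.0 for each) or fell under an unadjusted 0.05, where 2.1% of all genes did. In the 4-group fit, 0 of 5 passed for treatment in animals without later tumors, where 8 genes passed (0.064%). In animals with later tumors 0 of 5 passed, as did no gene of the 12499. At an unadjusted 0.05, 2 of 5 were under the threshold there, Ngp (0.35 ± 0.12, SE) and Csf3r (0.20 ± 0.09, SE), against 7% of all genes. Between protected tamoxifen glands and placebo glands with later tumors 0 of 5 passed (smallest limma adjusted p = 0.189), where 579 genes passed (4.63%). At an unadjusted 0.05, 1 of 5 was under the threshold in that comparison, Ngp (0.22 ± 0.10, SE). The same held for treatment in animals without later tumors, again Ngp (0.27 ± 0.12, SE). The share of all genes is not given for these 2 counts, so they are a description.

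Ranges are given as a description, since treatment chose Prtn3. In the tamoxifen glands without later tumors every Prtn3 level lay above every one of the placebo glands without them, and 163 genes (1.3%) were parted in that direction. The lowest tamoxifen level there was 8.76 and the highest placebo level 7.75. S100a9 in the same glands ran from 6.96 to 8.98 against 6.76 to 7.80, and Csf3r from 7.22 to 7.63 against 7.34 to 7.42.

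Whether Prtn3 varied with the other members was described with Pearson's r between glands. With the treatment means subtracted, r of the 8 genes with Prtn3 over 20 glands ran from -0.22 (S100a9) to 0.34 (Ctsg), with a median of -0.14. All 8 lay inside the range of -0.39 to 0.46 that held the 5th to the 95th percentile of r over 12498 genes. Without subtracting the treatment means the median was 0.12, so its sign depends on that step. Elane, whose level hardly varied, had r = 0.17.

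Because the 20 glands fell into 2 sets for Prtn3, relations were tested only in the 10 placebo glands, which lie in 1 set. The 10 tamoxifen glands span both sets, and r there, from -0.47 (Csf3r) to 0.31 (Ctsg), is given as a description in place of a planned test. In the placebo glands r ran from -0.19 (Camp) to 0.51 (Csf3r). No relation passed there (smallest permutation p = 0.131, adjusted p = 0.287 over the 24 relations computed, which included those within each set), and Spearman's rho ran from -0.25 to 0.61 with none passing (smallest adjusted p = 0.261). The placebo r was also computed without the 2 glands farthest from the median of Prtn3, those of animals 1 and 10. It was then 0.84 for Lyz2, 0.64 for S100a8, 0.63 for S100a9, 0.61 for Csf3r and 0.60 for Ctsg. For Mpo, Ngp and Camp it was 0.24, 0.08 and -0.23. With all 10 glands Lyz2, S100a8 and S100a9 had 0.35, 0.13 and 0.18, so the low placebo r of these members depended on 2 glands.

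The 6 glands with the highest Prtn3 and the 14 others were set apart by Prtn3 itself after the data had been seen, so r within them is a description without a test. In the 6 glands, where Prtn3 covered only 10.37 to 10.96, r with Prtn3 was -0.97 for Csf3r, -0.95 for S100a9, -0.92 for S100a8, -0.90 for Lyz2 and -0.71 for Ngp. Without the 2 of these glands farthest from the median of Prtn3 it was -0.93, -0.89, -0.89, -0.85 and -0.16 in the same order of genes. For Camp, Mpo and Ctsg, dim on every array, it was -0.52, 0.09 and 0.03, and 0.60, 0.93 and 0.64 without those 2 glands. In all 6 glands r was -0.76 with the mean of the macrophage and monocyte markers. With the means of the T and B lymphocyte markers it was -0.75 and -0.78. It was 0.88 with the milk list, 0.65 with the epithelial list and 0.60 with the skeletal muscle list. The part of these cell types was not tested. The 14 other glands pool 10 placebo and 4 tamoxifen glands, whose treatment means were not subtracted there. In them r was 0.69 for Csf3r and between 0.43 and 0.48 for S100a8, S100a9, Lyz2 and Ngp. In the 10 placebo glands alone it was 0.51 for Csf3r and between 0.01 and 0.35 for the other 4.

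**Figure D2:**
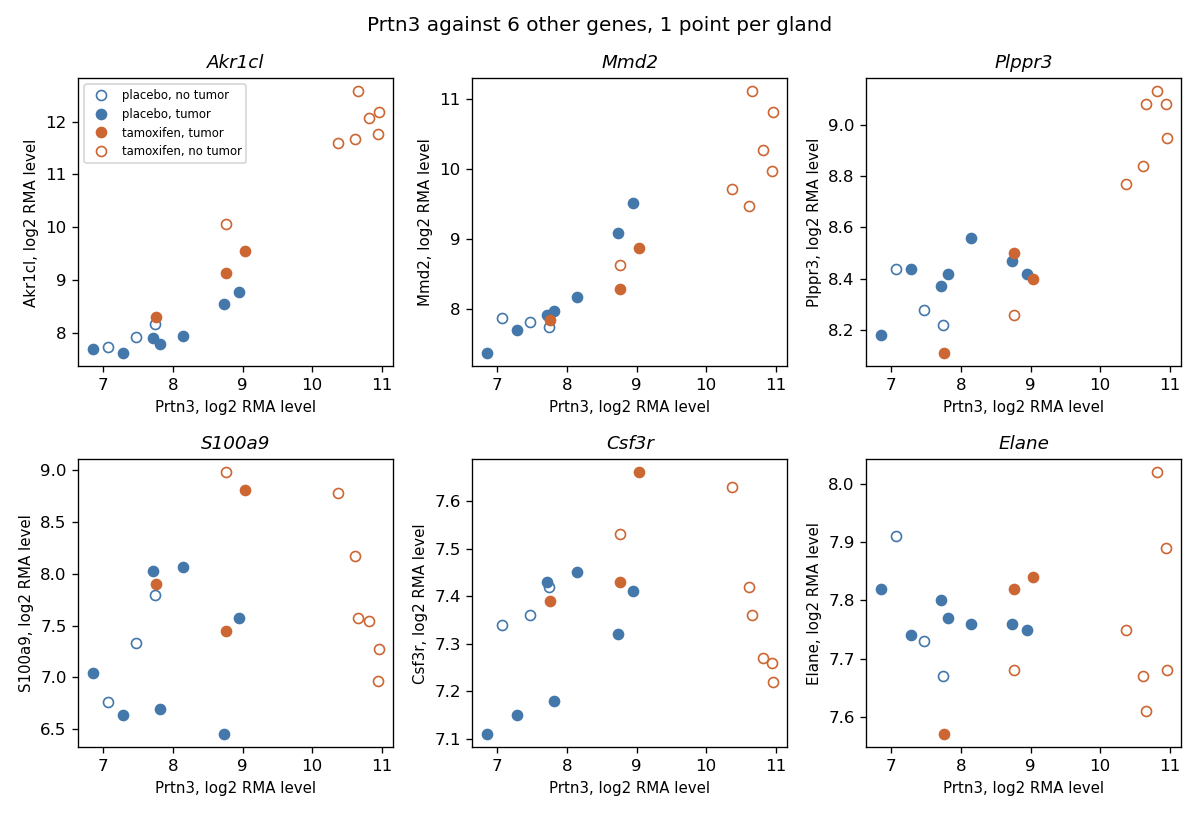
Level of 6 genes (vertical axes) against that of Prtn3 (horizontal axis), both as log2 RMA level, 1 point per gland, with blue for placebo, orange for tamoxifen, filled for a later tumor and open for none. Akr1cl and Mmd2 are highest in the glands with the highest Prtn3, S100a9 and Csf3r are not, and Elane stays between 7.57 and 8.02.

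The other members varied with each other. Among Ngp, S100a8, S100a9, Lyz2 and Csf3r, r over 20 glands with the treatment means subtracted ran from 0.33 to 0.97 over 10 pairs, with a median of 0.67. S100a8 and S100a9 were closest (r = 0.97, 0.95 with placebo and 0.98 with tamoxifen). Over the 10 pairs the median was 0.54 with placebo and 0.83 with tamoxifen. The highest S100a9 levels of the placebo glands were those of animals 4 and 9 (8.03 and 8.07), and of the tamoxifen glands those of animals 3, 4 and 10 (8.98, 8.78 and 8.81). Csf3r was also highest in animal 9 among the placebo glands (7.45) and in animal 10 among the tamoxifen glands (7.66).

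**Figure D3:**
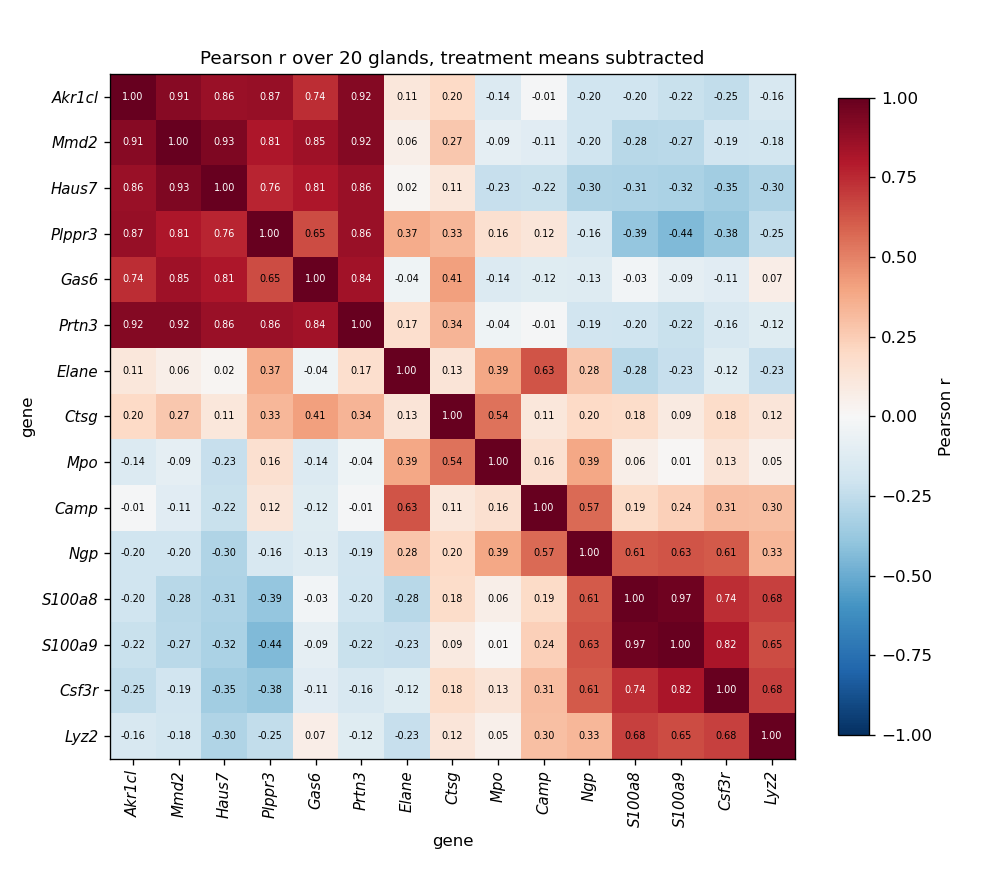
Pearson r between genes over 20 glands after the treatment means were subtracted, for Prtn3, the 5 genes most like it, Elane and the other 8 members. Prtn3 and the 5 genes chosen for likeness form 1 block, and Ngp, S100a8, S100a9, Csf3r and Lyz2 another, with r from 0.33 to 0.97.

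The genes most like Prtn3 by the same measure were none of the listed neutrophil genes. They were Akr1cl (r = 0.92), Mmd2, a member of the progestin and adipoQ receptor family (0.92), Haus7, a subunit of the augmin complex of the spindle (0.86), Plppr3, a phospholipid phosphatase-related membrane protein (0.86), and Gas6, a ligand of the TAM receptor kinases (0.84). Lrg1 (0.82), whose protein is secreted and in humans is also stored in neutrophil granules, and Triobp (0.81), which encodes an actin-binding protein, complete the 7 genes at 0.8 or above. They are named outside the rule for most similar genes, after their values were seen. Within the 10 placebo glands r was 0.91 for Akr1cl, 0.93 for Mmd2, 0.82 for Haus7 and 0.90 for Gas6, but 0.48 for Plppr3. Within the 6 glands of high Prtn3 it was 0.32, 0.39, 0.62 and 0.27 for the first 4 and 0.67 for Plppr3. Placebo animals 1 and 10, with the highest placebo Prtn3 (8.95 and 8.74), were also the highest placebo glands for Akr1cl, Mmd2, Haus7 and Gas6. For these genes the placebo r was not recomputed without those glands, as was done for the members, so the placebo values of the 2 sets of genes are not directly comparable.

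Most unlike were Zfp950 (r = -0.74), Cep68 (-0.73) and R3hdm1 (-0.72). With the values as they stood, the highest r were those of Akr1cl (0.97), Mmd2 (0.94), 1110017D15Rik (0.90), Asic2 (0.90), an acid-sensing ion channel, and Nmu (0.89), the gene of neuromedin U. These ranks over 20 glands span both sets of glands, and Akr1cl and Prtn3 had both stood out by treatment in the earlier results, so their likeness is no independent finding.

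Akr1cl ran from 7.62 to 8.78 with placebo, read 9.13, 8.31 and 9.55 in the tamoxifen glands with later tumors, and ran from 10.06 to 12.57 in those without. Animal 3 was the lowest of the last group, at 10.06, as it was for Prtn3, but for Akr1cl it still lay above every gland of the other groups. The highest Akr1cl was that of animal 9, whose Prtn3 of 10.66 was the median of its group. Mmd2 averaged 10.00 ± 0.83 (SD, n = 7) in that group, 8.34 ± 0.51 (SD, n = 3) in tamoxifen glands with later tumors, 8.25 ± 0.77 (SD, n = 7) in placebo glands with them and 7.81 ± 0.06 (SD, n = 3) in placebo glands without.

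The neighbours of Prtn3 on chromosome 10 were looked at after its levels were known. Plppr3, next to it on one side, averaged 8.87 ± 0.30 (SD, n = 7) in tamoxifen glands without later tumors and 8.31 ± 0.11 (SD, n = 3) in placebo glands without, and had r = 0.86 with Prtn3. Elane, next to it on the other side and with a level that hardly varied, had r = 0.17. Ptbp1, Misp and Palm beyond Plppr3 had r of -0.14, -0.10 and 0.46, and Med16, R3hdm4 and Kiss1r beyond Elane had 0.39, 0.50 and 0.38. Cfd and Prss57 had no probe set with a single symbol and are not analysed here.

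In addition, 7 lists of neutrophil genes held 62 genes, of which 53 had a probe set and 33 were tested. The lists include every member except Lyz2. With tamoxifen 0 of 33 passed in limma, where 0.008% of all genes did. At an unadjusted 0.05, 8 of the 33 were higher and 1 lower, against 13.9% of all genes in either direction. Prtn3, chosen for this difference, is among the 33 and among the 8, and its part in both counts is no test. Ngp, S100a8, S100a9 and Csf3r are also among the 33, and all of these but Csf3r among the 8. For these members the counts repeat the results given above. Of the mature neutrophil genes 7 of 7 differences were above 0 (median 0.17), with Wfdc21, an antimicrobial whey acidic protein, at 0.74 ± 0.23 (SE; limma adjusted p = 0.174) the largest. Those 7 include the members S100a8, S100a9 and Csf3r. Of the protease inhibitors 4 of 5 were above 0 (median 0.30), led by Serpinb1a, an intracellular inhibitor of neutrophil proteases, at 0.42 ± 0.15 (SE; limma adjusted p = 0.219). The 4 tested NADPH oxidase genes, which make the oxidative burst, lay between 0.06 and 0.23, and none of the growth factor, chemokine and adhesion genes or the granulocyte transcription factors fell under an unadjusted 0.05.

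With a later tumor 1 of 33 rose, Lcn2, a secondary granule protein that binds iron siderophores and is also made by mammary epithelium. It averaged 10.90 ± 0.70 (SD, n = 10) in glands of animals that later had a tumor, against 9.54 ± 0.60 (SD, n = 10) in the others, 2.57-fold higher (limma adjusted p = 0.0431). That call passed in 6 of 20 fits that left out 1 animal (adjusted p from 0.0161 to 0.0971) and did not pass with treatment in the model (1.23, adjusted p = 0.288). At an unadjusted 0.05, where 16.5% of all genes fell, 2 of the 33 were higher, Lcn2 and the secreted protease inhibitor Slpi (1.02 ± 0.30, SE; limma adjusted p = 0.112). Another 5 were lower, which were Prtn3, Hp and the inhibitors Serpinb1a, Serpina1b and Serpinb6b. Epithelial and milk markers lay higher in the same glands. With a later tumor 7 of 7 epithelial genes were higher at an unadjusted 0.05 (median 0.84), though 0 of 7 passed, and 4 of 5 milk genes passed (median 4.15), where 0.232% of all genes did. Their part in the Lcn2 difference was not tested.

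**Figure D4:**
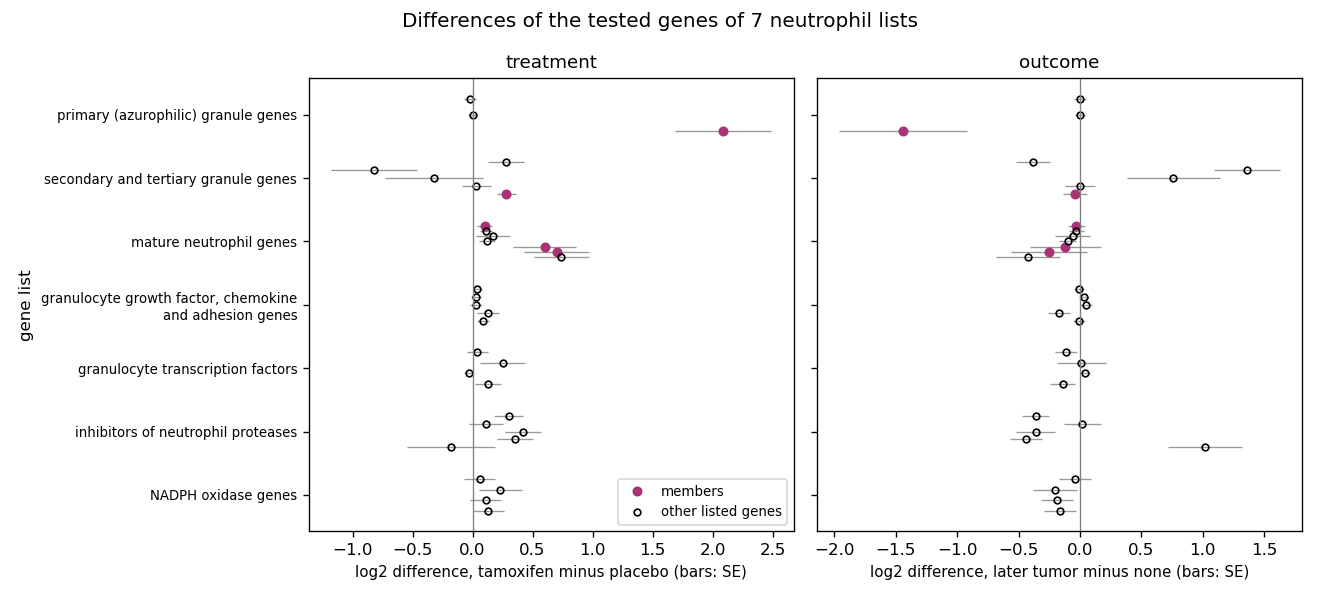
Log2 difference (horizontal axis, bars are SE) of each tested gene of the 7 neutrophil lists (vertical axis), left for tamoxifen minus placebo and right for later tumor minus none. Filled points are members. Prtn3, at 2.09 and -1.44, lies beyond every other listed gene in the left panel and on the negative side of the right panel.

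The 32 other tested genes of these lists include the members Ngp, S100a8, S100a9 and Csf3r. Their r with Prtn3 over 20 glands, with the treatment means subtracted, had a median of 0.06 and ran from -0.32 to 0.67. Of these, 3 genes, or 9.38%, exceeded the 95th percentile of all genes: Wfdc21 (0.67), the transcription factor gene Cebpa (0.53) and Selp, the gene of P-selectin (0.52). In the 10 placebo glands the median was 0.33, against 0.00 over all genes, and 5 of the 32, or 15.6%, exceeded the 95th percentile of all genes there (0.62). These were Fpr2, a formyl peptide receptor (0.84), the inhibitor gene Serpina3n (0.78), Wfdc21 (0.74), the chemokine receptor gene Cxcr2 (0.74) and Hp, the gene of haptoglobin (0.67). The mean of all mature neutrophil genes with a probe set had r = 0.50 with Prtn3 in placebo glands and 0.10 over 20 glands with the treatment means subtracted. For the 4 tested ones that are not members it was 0.80 and 0.52. These counts were made after the data had been seen and are a description. Which cells of the gland carried these transcripts was not tested. High r in placebo glands was not limited to neutrophil lists. The macrophage and monocyte list had 0.69 there and the eosinophil list, dim on every array, 0.79. The remaining cell type lists lay between -0.24 (skeletal muscle) and 0.47 (white adipocyte), with 0.00 for T lymphocytes and -0.04 for B lymphocytes. Over 20 glands with the treatment means subtracted, r was 0.53 for the eosinophil, 0.52 for the erythroid and bone marrow and 0.44 for the white adipocyte list. The remaining cell type lists then lay between -0.16 (epithelial) and 0.25 (endothelial).

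Markers of other cell types were read in the same glands. The 8 macrophage and monocyte markers with a probe set exceeded 6.85 on all 20 arrays, and their mean without Lyz1 had r = 0.76 with Lyz2, 0.55 with S100a8, 0.48 with S100a9, 0.47 with Csf3r, 0.05 with Ngp and 0.01 with Prtn3 over 20 glands with the treatment means subtracted. For Prtn3 that value joins opposite signs, since r with the whole list was 0.69 in the 10 placebo glands, 0.55 in the 14 glands of lower Prtn3 and -0.76 in the 6 of high Prtn3. Of 7 mast cell markers, which include stored serine proteases, 4 exceeded 6.85 on all arrays and the receptor genes Ms4a2 and Fcer1a on none, and none of the 5 tested differed by treatment at an unadjusted 0.05. All 4 eosinophil markers stayed below 6.85 on every array, as did 2 of 4 erythroid and bone marrow markers.

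Markers of other cell types were also compared between treatments, where 13.9% of all genes fell under an unadjusted 0.05. In limma 9 of 9 muscle genes were higher with tamoxifen at an unadjusted 0.05 (median difference 2.01), though 0 of 9 passed, and 0 of 9 stayed below 6.85 on every array. Their mean centred level ran from -1.78 to 0.69 with placebo and from -0.92 to 4.18 with tamoxifen. Its r with Prtn3 was -0.24 in the 10 placebo glands and 0.60 in the 6 glands of high Prtn3. Of T lymphocyte genes 5 of 5 were higher at an unadjusted 0.05 and 0 of 5 passed, with a mean centred level from -0.66 to 0.30 with placebo and from -0.33 to 0.72 with tamoxifen. Of B lymphocyte genes 3 of 4 were higher and 0 of 4 passed, with levels from -0.69 to 0.27 and from -0.42 to 0.94. Of milk genes 5 of 5 were lower and 0 of 5 passed, with levels from -2.31 to 4.69 and from -2.40 to 1.28. Of epithelial genes 4 of 7 were lower and 0 of 7 passed (median -0.52), with levels from -1.07 to 1.36 and from -0.90 to 0.27. In the B lymphocyte list r over 20 glands was 0.73 with S100a9 and -0.12 with Prtn3. The part of these cell types in the levels of Prtn3 and the other members was not tested.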

How the data were processed

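The authors deposited log2 values made with RMA, per the submitters' processing notes, for 45101 probe sets on 20 arrays, 1 per animal. Neither the program used for RMA nor a build is named in the labels. Array medians lay between 6.82 and 6.89, and r between arrays from 0.977 to 0.997. The values were used as deposited, and the number of arrays limits the precision. Probe sets with 1 symbol numbered 34958 (34754 matched to a current symbol); 932 with several and 9211 with none were left out. Each gene took its probe set of highest mean.

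Gene-wise comparisons used lmFit and eBayes of limma 3.58.1 (R 4.3.3), two-sided, with Benjamini-Hochberg adjustment over all genes tested and a threshold of 0.05. Permutation tests used 100000 resamples. Nothing in the labels names separate litters or days, so such structure, if present, could not be modelled. The p-values measure the spread between these animals and treat them as independent.

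The members, lists and tests were chosen with earlier results of these data known. Named genes were the members, the 5 most and 3 least like Prtn3, the 5 most like it as the values stood, and leading list genes. Glands were not paired by replicate number in the main fits. The r of same-numbered deviations ran from -0.109 to 0.456 across treatments and from -0.173 to 0.327 across outcomes. Numbers 2 (0.331) and 6 (0.456) across treatments, and 10 (0.327) across outcomes, had their best match at the same number. The remaining numbers did not, and a pairing of some glands was not tested further. Alternatives covered scaling, filter, probe set, variance model, array weights, blocks, the other factor and each animal left out.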

Additional observations from a re-analysis of the deposited data

Results flagged for a closer look

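Within groups of 7 to 10 glands, 54 sets of levels were checked for a gland far from its nearest neighbour relative to the range, a check that chance alone trips in about 1 of 20. It was tripped 4 times. Prtn3 of tamoxifen animal 3, without a later tumor, read 8.76, the next of its group 10.37. Camp of placebo animal 9, with a later tumor, read 6.38, next to 6.29, a level below the filter. Lyz2 of placebo animal 8 read 12.45 and stood apart both among the 10 placebo glands and among the 10 glands with a later tumor, where the next was 12.82.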

How the results depend on the processing

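The 18 results were recomputed under 549 alternatives, of which 524 kept direction and side of the threshold. The count of members other than Prtn3 past the treatment test, and of all members past the outcome test, was 0 under every alternative, with the replicate numbers as a block too. That replicate block moved the calls over all genes from 1 to 235 by treatment and from 29 to 35 by outcome. Prtn3 by outcome within tamoxifen (-1.93) passed with array weights (-2.0, adjusted p = 0.0437) and without tamoxifen animal 3 (-2.21), and ran from -2.21 to -1.55 when 1 animal was left out (adjusted p from 0.0208 to 1.0). Those fits were added after seeing the data. The median r of the 8 members with Prtn3 (-0.14) was 0.12 without subtracting treatment means and ran from -0.22 to -0.06 when 1 animal was left out. Small outcome differences changed sign. With array weights they were 0.01 for Ngp, 0.04 for S100a8, 0.05 for Lyz2 and 0.04 for Csf3r. With treatment in the model they were 0.08 for Ngp, 0.14 for S100a8, 0.04 for S100a9, 0.02 for Lyz2 and 0.01 for Csf3r. Lyz2 read 0.02 after a second quantile normalization, and without placebo animals 7, 8 and 9 Lyz2 read 0.05 and Csf3r 0.02. Leaving out 1 animal gave -0.09 to 0.02 for Ngp and -0.08 to 0.06 for Lyz2 by outcome, and -0.01 to 0.13 for Lyz2 by treatment. The cause was not tested. Mpo, Ctsg and Camp, dim on all arrays, could be compared only without the filter, where none passed. The signal of dim probe sets limits what their values can show.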
